A study of Mus musculus with 12 samples.

Results

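Npas4, its partner genes Arnt and Arnt2, and its relatives Npas1, Npas2 and Npas3 were followed in mouse hippocampus after pilocarpine. The members were every probe set whose symbol in the platform annotation was 1 of these 6 genes, and of several probe sets of a gene, the one with the highest mean level was used. The annotation used here held 5 of the 6 genes, out of 19938 genes with a probe set of their own, and Npas2 is named only. Npas3 had a second probe set.

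Total RNA of whole hippocampi was hybridised to Affymetrix Mouse Gene ST arrays, 1 for each animal, in 4 groups of 3 animals. Srf mutants given pilocarpine had both Srf alleles floxed and showed strong seizures without status epilepticus (SE), a state of continuous seizure. Srf mutant controls had the same genotype and received Ringer solution. Heterozygous mice with SE kept 1 functional Srf allele and received pilocarpine, and heterozygous controls received Ringer solution. All 4 groups carried a Cre driven by the Camk2a promoter and activated by tamoxifen, and all received tamoxifen. All were adult mice on a C57/Bl6 background, 7 to 10 weeks of age. The paper states that littermates of both sexes were used in general, without giving the sexes within these groups. Cre of this kind acts in glutamatergic forebrain neurons, so that glia and interneurons of the mutants kept Srf. Pilocarpine, a muscarinic agonist, was given at 335 or 350 mg/kg after methyl scopolamine. Hippocampi of mice with SE were taken at 40 min. The labels also state diazepam at 40 min of SE, whereas the paper describes killing at 40 min of SE and diazepam as alternatives. Neither source states separately for the animals on these arrays whether they received it. The labels call the heterozygous mice WT, and call both pilocarpine groups mice with seizure. The harvest time of mutants without SE is not given in the sources used here. Mutants that reached SE were not analysed here, so that genotype and SE cannot be told apart wherever the pilocarpine groups are compared.

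NPAS4 is a transcription factor of neurons, of the family with a basic helix-loop-helix and a PAS domain (bHLH-PAS). Its gene is silent or weakly active at rest and is transcribed within minutes of calcium entry, and its protein binds DNA only as a dimer with ARNT or ARNT2, which are made constantly. In the hippocampus NPAS4 is known for adjusting the inhibitory synapses that a neuron receives. NPAS1 and NPAS3 also pair with ARNT proteins and are known from interneurons and from brain development, whereas NPAS2, a relative of CLOCK, pairs mainly with BMAL1.

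The promoters of Npas4 and Arnt are shown because Npas4 was the induced member and because both windows hold TGACG, the core letters of the cyclic AMP response element (CRE), the element bound by CREB. The windows are the 250 bases before the annotated start, from RefSeq on build GRCm38.p6, and all 6 genes were matched. The Npas4 window is chr19:4989972-4990221 on the minus strand and the Arnt window is chr3:95434140-95434389 on the plus strand, both printed 5′ to 3′ along the gene. Capitals mark TGACG on either strand and the TATA box letters TATAA.
Npas4: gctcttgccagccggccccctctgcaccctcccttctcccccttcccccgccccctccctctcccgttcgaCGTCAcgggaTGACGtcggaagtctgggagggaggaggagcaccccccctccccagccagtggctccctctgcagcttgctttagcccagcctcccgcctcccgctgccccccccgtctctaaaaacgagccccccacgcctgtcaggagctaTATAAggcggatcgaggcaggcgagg
Arnt: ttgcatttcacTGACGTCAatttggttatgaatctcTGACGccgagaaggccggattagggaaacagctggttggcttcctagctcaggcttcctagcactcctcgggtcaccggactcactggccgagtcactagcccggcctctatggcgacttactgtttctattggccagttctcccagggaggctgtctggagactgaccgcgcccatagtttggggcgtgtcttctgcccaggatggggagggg

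Both strands were searched for 7 motifs, with positions counted back from the annotated start. Npas4 had 2 matches to TGACG, which begin at -179 and -169 on opposite strands, and 1 match to TATAA at -26. Of the 32851 promoter windows in the table, 17.8% held TGACG and 22.8% held TATAA. The window of Npas4 held no match to the full CRE TGACGTCA, which is in 1.55% of windows, or to the CArG box, the element bound by SRF, which is in 1.47%. Arnt had the full CRE at -239 and TGACG in 3 places, of which -239 and -236 lie within the full CRE and -214 lies outside it. TCGTG, letters that NPAS4 with ARNT can bind, was present at -183 in Npas1 and at -236 in Npas2, and in 13.3% of all windows. ACGTG, the core letters of hypoxia response elements, was present at -217 in Npas2 and at -105 in Npas3, and in 16.6% of all windows. Npas1 also had TATAA at -201. CACGTG, the E-box that overlaps ACGTG and is in 6.02% of windows, was in none of the 6, and Arnt2 had no match to any motif. A match describes these letters and is not evidence of binding, and matches outside the windows were not searched.

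Values are robust multiarray average (RMA) levels on a log2 scale, so that a difference of 1 is a doubling of signal. Levels of different probe sets are not comparable, because each responds to its own probes. Array medians lay between 6.78 and 6.86, and the highest value of an array between 14.72 and 14.81. A change was called where limma gave a Benjamini-Hochberg adjusted p under 0.05 over all 23410 probe sets with a gene in the annotation. Srf, the deleted gene, measured 8.83 to 8.90 in mutants given pilocarpine, 8.80 to 8.96 in mutant controls, 10.16 to 10.27 in heterozygous mice with SE and 9.53 to 9.60 in heterozygous controls, so that every mutant lay below every heterozygous mouse. Glutamatergic markers were expressed in all groups, with a mean level of 12.01 to 12.10 in mutants given pilocarpine, 12.04 to 12.13 in mutant controls, 12.07 to 12.14 in heterozygous mice with SE and 12.14 to 12.21 in heterozygous controls, and 0 of 5 was called in any comparison. Over all probe sets 0.12% to 12% were called, depending on the comparison. Of the markers of other cells, 1 of 6 interneuron genes, Sst, was higher in SE by 0.31 (log2), as were 5.08% of all probe sets. The microglial genes Cx3cr1 and P2ry12, 2 of 5, were lower by -0.19 and -0.23. The endothelial gene Tek, 1 of 4, was lower by -0.45, and 6.93% of all probe sets were called lower. The other genes of these lists were not called in SE, and the part of the called markers in the results was not tested. Xist, expressed from the inactive X of females, was above 9 on 1, 2, 0 and 1 of 3 arrays of these groups in the same order. By this marker the sexes were not balanced over the groups, with 0 of 3 mice with SE above 9. Adding Xist to the model changed the call of no member. In bulk tissue, fewer cells of a type and less RNA per cell cannot be told apart.

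Npas4 rose steeply in the hippocampus of both genotypes. Its level was 11.44, 11.38 and 11.18 in the 3 Srf mutants given pilocarpine, against 7.88, 7.63 and 7.59 in mutant controls. The groups lay far apart, with every mutant given pilocarpine above every mutant control, as were 7.04% of all probe sets. The increase was 12.4-fold, or 3.64 on the log2 scale (limma adjusted p = 1.89e-08, standard error 0.121, 95% confidence interval 3.37 to 3.90). It ranked 1 of 23410 probe sets by log2 fold change. Npas4 was the 1 of 5 measured members that was higher, where 0.871% of all probe sets were called higher and 1.84% in either direction.

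In heterozygous mice with SE Npas4 measured 13.21, 12.91 and 13.06, against 7.14, 7.58 and 7.18 in heterozygous controls. These groups did not overlap either, which held for 10.6% of all probe sets in this direction, and all mice with SE lay above the mutants given pilocarpine. The increase was 54.1-fold, or 5.76 on the log2 scale (limma adjusted p = 2.14e-11, standard error 0.121, 95% confidence interval 5.49 to 6.02), and it again ranked 1 of 23410. Npas4 was the 1 of 5 members called, where 5.08% of all probe sets were called higher and 12% in either direction. Npas4 kept rank 1 in both genotypes under each alternative setting that was run.

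**Figure D1:**
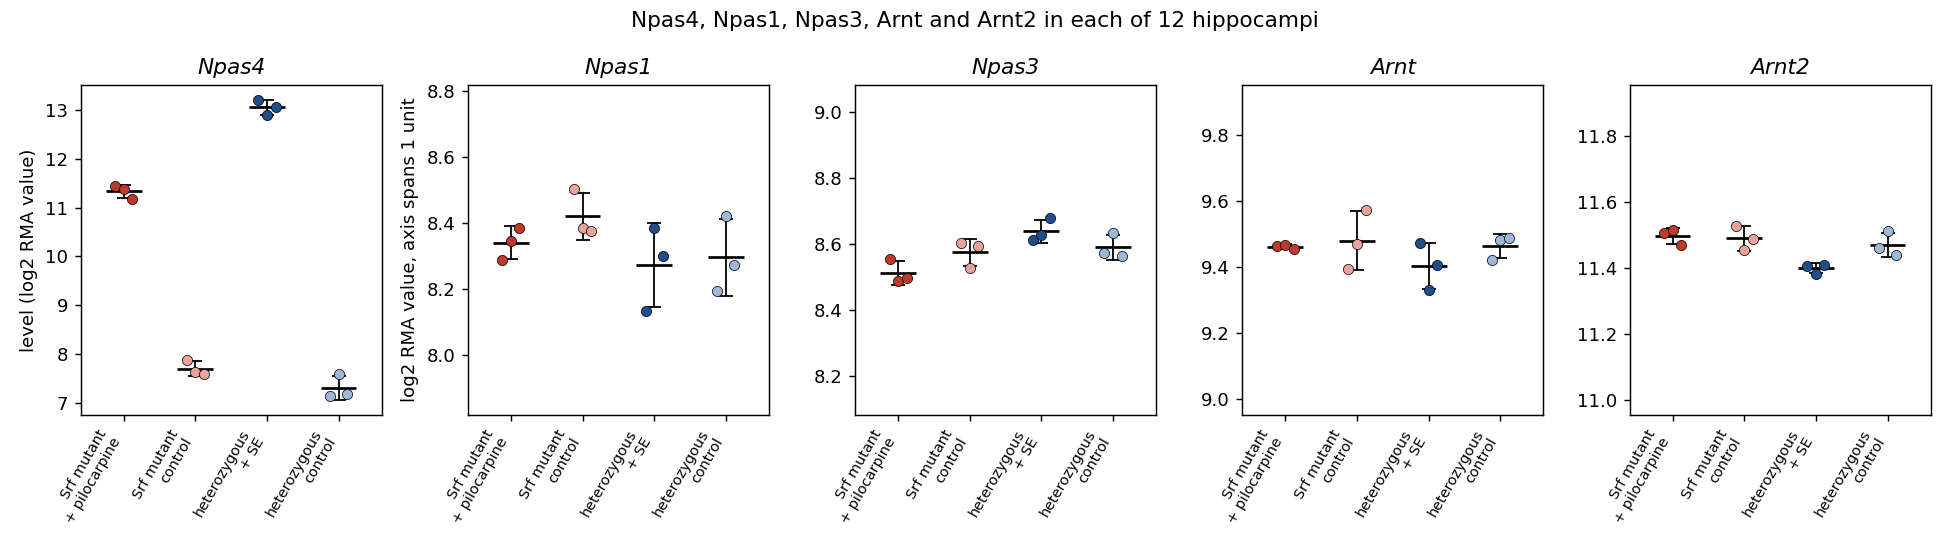
Log2 RMA level of each measured member (vertical axes) in the 4 groups of 3 animals, with mutants given pilocarpine, mutant controls, heterozygous mice with SE and heterozygous controls from left to right. Points are animals, long bars show means and short bars the SD (n = 3 each); the Npas4 axis spans over 6 units and each other axis 1 unit, and Npas4 is high in both pilocarpine groups while the other genes stay within 0.369 (log2) over all 12 arrays.

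The response of Npas4 was smaller in the mutants. The log2 response of mutants minus that of heterozygous mice was -2.12 (limma adjusted p = 1.43e-05, standard error 0.171, 95% confidence interval -2.49 to -1.75), a 4.35-fold smaller increase. Npas4 was the 1 of 5 members with such a difference, where 2.12% of all probe sets were called lower and 3.59% in either direction, and its difference ranked 21 from the lowest of 23410. Between the pilocarpine groups Npas4 was 3.30-fold lower in mutants than in heterozygous mice with SE, with a log2 fold change of -1.72 (limma adjusted p = 1.84e-06, standard error 0.121). There 4.72% of all probe sets were called lower and 10.1% in either direction, and Npas4 was again the 1 member called.

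Without pilocarpine the log2 difference of Npas4 between mutants and heterozygous mice was 0.40 (limma adjusted p = 0.412, standard error 0.121, 95% confidence interval 0.13 to 0.66), which did not pass the test (unadjusted p = 0.00635). The lowest mutant control, at 7.59, lay just above the highest heterozygous control, at 7.58. Over all probe sets, 6.1% had every mutant control above every heterozygous control. Of the 5 members 0 were called between the controls by limma and 1, Npas4, had an unadjusted p under 0.05, where 0.12% of all probe sets were called and 8.73% had such a p. These mutant controls also serve as the baseline of the mutant response.

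Arnt and Arnt2, which encode the obligatory partners of NPAS4, were not called in any comparison. Arnt measured 9.46, 9.47 and 9.45 in mutants given pilocarpine, against 9.39, 9.47 and 9.57 in mutant controls. It measured 9.47, 9.33 and 9.41 in heterozygous mice with SE, against 9.42, 9.48 and 9.49 in heterozygous controls. The groups overlapped in both genotypes. Changes on the log2 scale were -0.02 in the mutants (95% confidence interval -0.13 to 0.10, limma adjusted p = 0.927) and -0.06 in SE (95% confidence interval -0.17 to 0.05, limma adjusted p = 0.551).

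Arnt2, the form enriched in neurons, measured 11.51, 11.52 and 11.47 in mutants given pilocarpine, against 11.53, 11.46 and 11.49 in mutant controls, and these groups overlapped. Its change was 0.01 on the log2 scale (95% confidence interval -0.08 to 0.09, limma adjusted p = 0.958). In heterozygous mice with SE Arnt2 measured 11.41, 11.38 and 11.41, against 11.46, 11.51 and 11.44 in heterozygous controls. Every mouse with SE lay below every control, as did 19.8% of all probe sets. The log2 fold change was -0.07 (95% confidence interval -0.16 to 0.01), which did not pass the test (limma adjusted p = 0.312). Between the pilocarpine groups Arnt2 was 0.10 higher in mutants (95% confidence interval 0.01 to 0.18, unadjusted p = 0.0287, limma adjusted p = 0.155) without overlap, where 15.1% of all probe sets were above.

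Npas1, which is known as a repressor in interneurons, measured 8.29, 8.35 and 8.39 in mutants given pilocarpine, against 8.502, 8.38 and 8.37 in mutant controls. In heterozygous mice with SE it measured 8.13, 8.38 and 8.30, against 8.19, 8.42 and 8.27 in heterozygous controls. The groups overlapped in both genotypes. For Npas1 the log2 fold change was -0.08 in the mutants (95% confidence interval -0.24 to 0.08, limma adjusted p = 0.673) and -0.02 in SE (95% confidence interval -0.18 to 0.13, limma adjusted p = 0.899). Between the controls it was 0.12 higher in mutants (95% confidence interval -0.03 to 0.28, limma adjusted p = 0.664). The summed level of 6 interneuron markers was 63.54 to 63.91 in mutants given pilocarpine and 63.29 to 63.79 in mutant controls, against 62.89 to 63.16 in heterozygous mice with SE and 62.60 to 62.92 in heterozygous controls. All 6 markers were higher in mutant than in heterozygous controls, by 0.07 to 0.20 (log2), and 0 of 6 passed the test, where 0.12% of all probe sets were called. Of the 6, 2 were called higher in mutants given pilocarpine than in heterozygous mice with SE, as were 5.39% of all probe sets. These were Gad1 by 0.14 (limma adjusted p = 0.0418) and Gad2 by 0.28 (limma adjusted p = 0.00269), which encode the enzymes of GABA synthesis. Between the controls they were higher in mutants by 0.11 and 0.17 without overlap, where 6.1% of all probe sets lay above. The response of mutants minus heterozygous mice was 0.04 for Gad1 (limma adjusted p = 0.823) and 0.10 for Gad2 (limma adjusted p = 0.52). Between the pilocarpine groups the other markers were not called, with 0.02 for Slc32a1 and 0.09 for Pvalb. Without overlap, Sst had -0.15 (limma adjusted p = 0.083) and Vip 0.27 (limma adjusted p = 0.124), where 12.8% of all probe sets lay below and 15.1% above. The part of these markers in the Npas1 values was not tested.

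Npas3, which is needed for neurogenesis in the dentate gyrus, measured 8.56, 8.49 and 8.497 in mutants given pilocarpine, against 8.60, 8.53 and 8.59 in mutant controls. In heterozygous mice with SE it measured 8.61, 8.63 and 8.68, against 8.57, 8.64 and 8.57 in heterozygous controls. The groups overlapped in both genotypes. For Npas3 the log2 fold change was -0.06 in the mutants (95% confidence interval -0.15 to 0.03, limma adjusted p = 0.549) and 0.05 in SE (95% confidence interval -0.04 to 0.14, limma adjusted p = 0.561). Between the pilocarpine groups Npas3 lay below in mutants without overlap, as did 12.8% of all probe sets, with a log2 fold change of -0.13 (95% confidence interval -0.22 to -0.03, unadjusted p = 0.0113, limma adjusted p = 0.0851). Its second probe set gave -0.19 in that comparison (limma adjusted p = 0.181) and 0.16 in SE (limma adjusted p = 0.257).

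**Figure D2:**
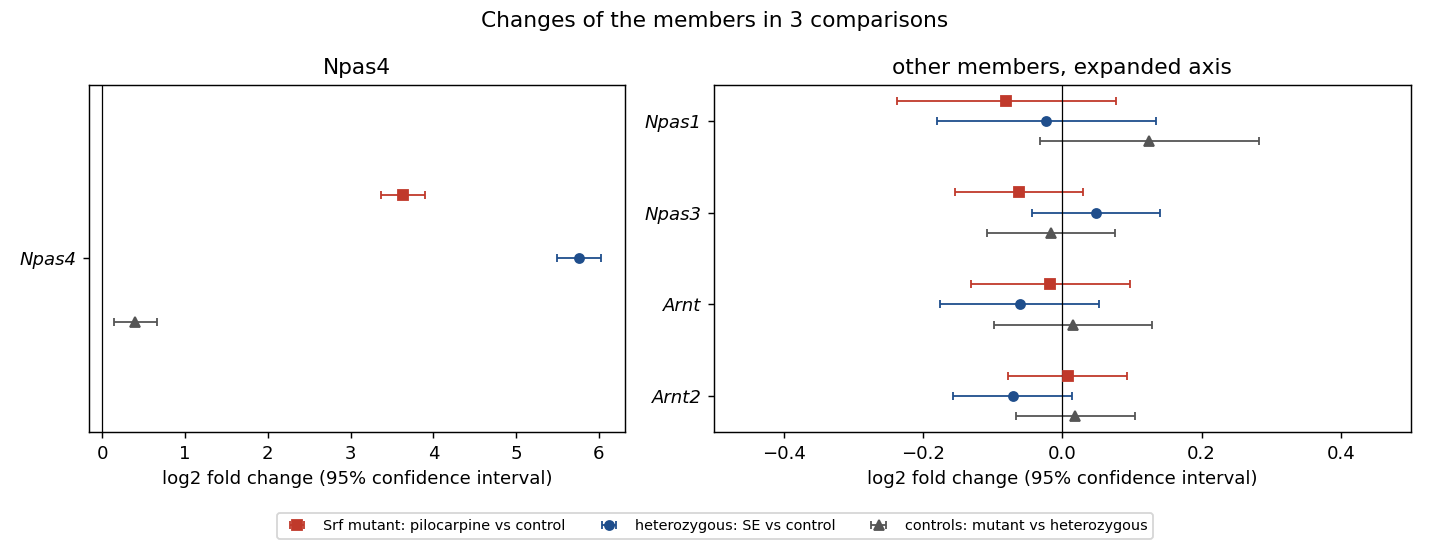
Log2 fold change (horizontal axes) of the 5 measured members (3 animals per group) in mutants given pilocarpine over mutant controls, in heterozygous mice with SE over heterozygous controls, and in mutant over heterozygous controls. Bars are 95% confidence intervals from limma; Npas4 lies at 3.64, 5.76 and 0.40, and on the expanded axis of the other 4 genes every interval includes 0.

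Over the 5 members the median log2 fold change was -0.02 in the mutants given pilocarpine and -0.02 in heterozygous mice with SE, beside -0.0036 and -0.03 over all probe sets. The median difference between the responses was -0.06 over the members and 0.02 over all probe sets. Apart from Npas4, the difference was -0.06 for Npas1 (95% confidence interval -0.28 to 0.17), -0.11 for Npas3 (-0.24 to 0.02), 0.04 for Arnt (-0.12 to 0.20) and 0.08 for Arnt2 (-0.04 to 0.20), with limma adjusted p values of 0.415 to 0.851. Between the controls, Npas3 had -0.02 (-0.11 to 0.08), Arnt 0.02 (-0.10 to 0.13) and Arnt2 0.02 (-0.07 to 0.10).

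Of the 44 genes that rose by at least 2 (log2) in SE and passed the test, Npas4 had the largest increase in both genotypes. These genes were chosen by their increase in SE, so that the values in SE are a description. The same choice lowers the share of the mutants, so that the shares are a description too. The log2 response of Npas4 in the mutants was 63.2% of that in heterozygous mice, the highest share of the 44 genes on the log2 scale, whose median share was 28.8%. Inhba, which encodes an activin subunit, followed with 59.6%, Arc, a gene of synaptic plasticity, with 58.4%, Dusp6, an ERK phosphatase gene, with 51.4%, and Fos, a subunit of AP-1, with 50.9%. The order turns on the fold scale, where the fold of Npas4 in the mutants was 23.0% of that in heterozygous mice, rank 24 of 44 beside a median of 23.4%, and that of Inhba was 55.8%, of Dusp6 48.3%, of Arc 45.3% and of Fos 16.2%. Shares were not tested between genes.

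**Figure D3:**
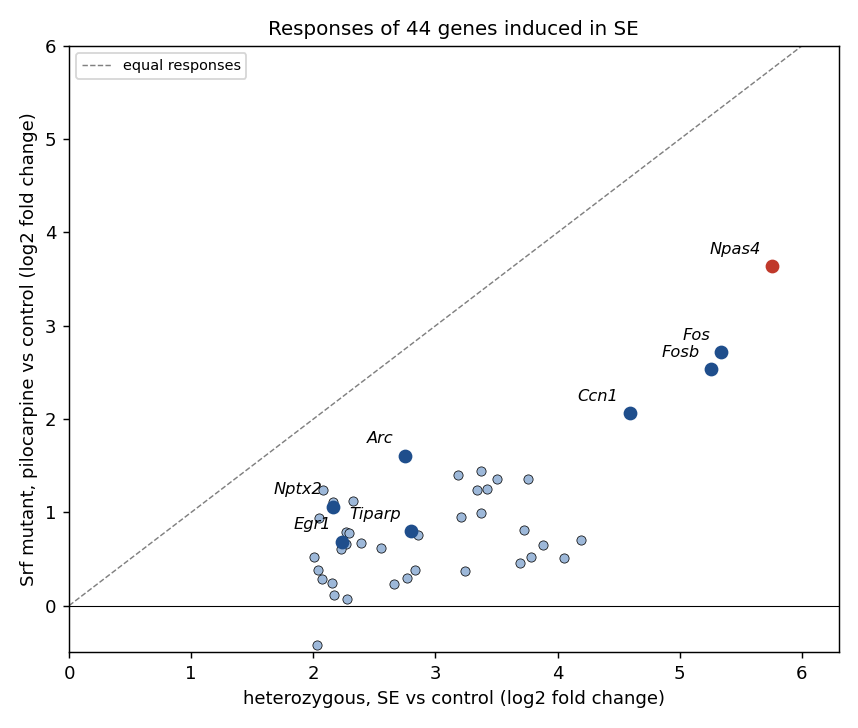
Log2 fold change in mutants given pilocarpine over mutant controls (vertical axis) against that in heterozygous mice with SE over heterozygous controls (horizontal axis) for the 44 genes with at least 2 (log2) in SE. Each point is a gene and the dashed line marks equal responses. Npas4, at 3.64 and 5.76, has the largest response on both axes. All 44 genes lie below the line, which is not a test, because they were chosen by the value on the horizontal axis.

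The genes whose 12 values were most like those of Npas4 were Fos, Fosb, Ccn1, Thbs1 and Dusp1. Likeness was the root mean square difference from Npas4 over the 12 arrays, after each of 19937 genes was centred on its own mean, and it was 0.448 (log2) for Fos and 0.50 for Fosb, which encodes another AP-1 subunit. It was 0.791 for Ccn1, a matricellular protein gene, 1.15 for Thbs1, which encodes thrombospondin-1, and 1.15 for Dusp1, a MAP kinase phosphatase gene. Fos measured 9.73, 9.95 and 9.58 in mutants given pilocarpine, 6.79, 6.96 and 7.36 in mutant controls, 12.02, 11.98 and 12.06 in heterozygous mice with SE, and 6.65, 6.62 and 6.77 in heterozygous controls. Its order of groups was that of Npas4, and its mutant controls also lay just above its heterozygous controls, by 0.36 (limma adjusted p = 0.475). Fos rose by 2.72 in the mutants and by 5.34 in SE, and the response of mutants minus heterozygous mice was -2.62 for Fos (limma adjusted p = 2.47e-06) and -2.12 for Npas4. The measure favours genes with a wide range, and whether Fos and Npas4 differed was not tested.

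**Figure D4:**
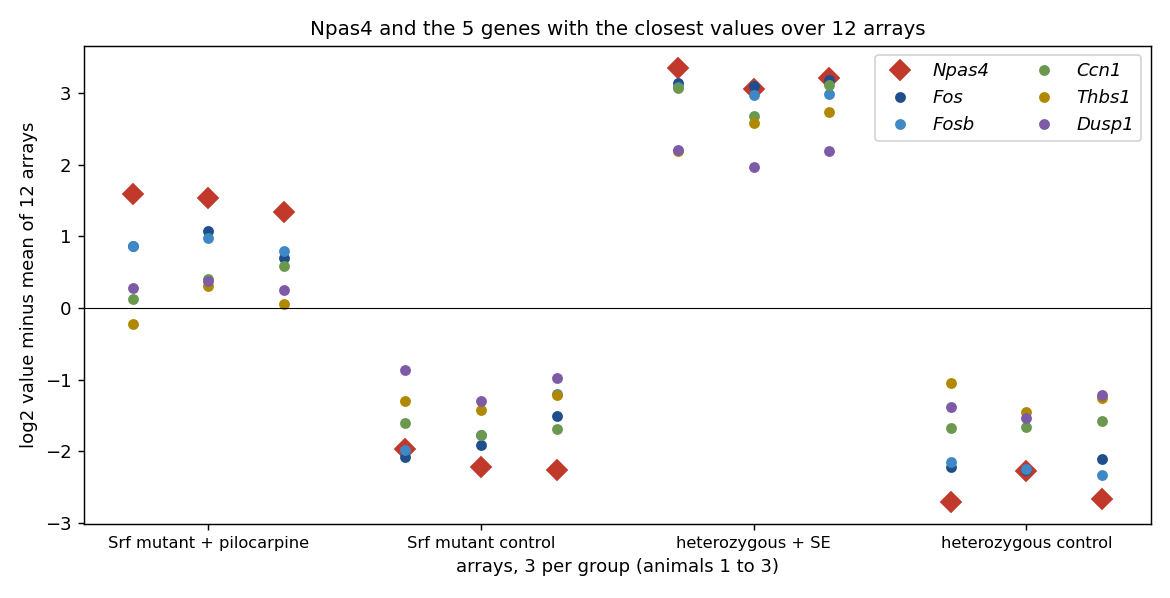
Log2 level minus the mean over 12 arrays (vertical axis) of Npas4 and the 5 genes nearest to it, on each array in the order mutants given pilocarpine, mutant controls, heterozygous mice with SE and heterozygous controls. Each point is 1 array; in mutants given pilocarpine Npas4 lies above the other 5 genes, and in heterozygous mice with SE Fos and Fosb lie near it.

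Of 8 genes reported elsewhere as NPAS4 targets, 6 were higher and 1 was lower in SE, where 5.08% of all probe sets were called higher and 6.93% lower, and the median log2 fold change was 1.94 beside -0.03 over all probe sets. Several of these genes are also induced by neuronal activity without NPAS4. The list was chosen with earlier results of these data known, so that its counts and medians are a description. Bdnf, the neurotrophin gene, measured 8.29, 8.32 and 8.33 in mutants given pilocarpine, against 7.94, 8.12 and 8.08 in mutant controls. It measured 9.21, 9.84 and 9.85 in heterozygous mice with SE, against 7.88, 7.86 and 8.01 in heterozygous controls. The groups were separate in both genotypes, as were 7.04% of all probe sets in this direction in the mutants and 10.6% in SE. The log2 fold change was 0.27 in the mutants, which did not pass the test (limma adjusted p = 0.376), and 1.72 in SE, which did (limma adjusted p = 2.72e-06). The responses differed by -1.45 (limma adjusted p = 0.000753, standard error 0.186).

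Nptx2, which encodes a pentraxin of excitatory synapses, rose by 1.06 in the mutants (limma adjusted p = 0.000308) and by 2.16 in SE (limma adjusted p = 3.11e-08). Arc rose by 1.61 in the mutants and by 2.75 in SE. Egr1, a zinc finger immediate early gene, rose by 0.69 in the mutants and by 2.24 in SE. Plk2, a kinase gene of synaptic scaling, rose by 0.28 in the mutants (limma adjusted p = 0.0183) and by 1.28 in SE. The call in the mutants was lost in 4 of 22 alternatives, with adjusted p up to 0.0863, 3 of which left out mutant control 1 or mutant given pilocarpine 1 or 2. Mdm2, the p53 ligase gene, was called lower in SE by -0.19 (limma adjusted p = 0.0453), a call lost in 15 of 22 alternatives, with adjusted p up to 0.162. Among them were the fits without each heterozygous control, each mutant control, mutant given pilocarpine 1 or 3, and heterozygous mouse with SE 2 or 3. Between the pilocarpine groups Mdm2 was higher in mutants by 0.26 (limma adjusted p = 0.00944), as were 5.39% of all probe sets. In that comparison 6 of the 8 targets were called lower, as were 4.72% of all probe sets. The difference of Mdm2 between the responses was 0.18 (limma adjusted p = 0.295). Syt10, a synaptotagmin gene induced by seizures in rat, was not called, with 0.15 in the mutants (95% confidence interval -0.22 to 0.52) and -0.36 in SE (95% confidence interval -0.73 to 0.01). In the mutants 5 of 8 were higher and 0 lower, with a median of 0.48, where 0.871% of all probe sets were called higher. In 6 of 8 the response was smaller than in heterozygous mice, as in 2.12% of all probe sets, with a median difference of -1.13 beside 0.02 over all probe sets. Between the controls 0 of 8 were called by limma, where 0.12% of all probe sets were called.

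Among 13 other genes of the family, 10 of bHLH-PAS factors and 3 of PAS coactivators, 0 were higher and 2 lower in SE, with a median of -0.05. Ahr, the dioxin receptor gene, measured 8.52, 8.38 and 8.42 in mutants given pilocarpine, against 8.63, 8.84 and 8.73 in mutant controls. It measured 8.23, 8.03 and 8.01 in heterozygous mice with SE, against 8.78, 8.85 and 8.97 in heterozygous controls. In both genotypes every animal given pilocarpine lay below every control, as did 11.4% of all probe sets in the mutants and 19.8% in SE. The log2 fold change was -0.29 in the mutants (95% confidence interval -0.46 to -0.13, limma adjusted p = 0.0688), and Ahr fell by 0.78 in SE (limma adjusted p = 1.97e-05, standard error 0.0744), where 6.93% of all probe sets were called lower. The responses differed by 0.48 (limma adjusted p = 0.0247, standard error 0.105), where 1.47% of all probe sets had a higher value in mutants and passed the test. This call was lost in 7 of 21 alternatives, with adjusted p up to 0.0744. Of these 7, 5 left out 1 array, namely mutant control 1, mutant given pilocarpine 1, heterozygous control 3 or heterozygous mouse with SE 2 or 3.

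Hif3a, an inhibitory member of the hypoxia factors, measured 5.88, 5.94 and 5.84 in heterozygous mice with SE, against 6.31, 6.18 and 6.11 in heterozygous controls. It fell by 0.31 (log2) without overlap (limma adjusted p = 0.0123), where 19.8% of all probe sets lay below. The adjusted p from limma was up to 0.0575 when heterozygous control 1 or heterozygous mouse with SE 3 was left out. Hif1a and Epas1, the hypoxia factors that activate transcription, had -0.05 and 0.03 in SE and were not called. Clock, the circadian factor gene, had 0.20 in the mutants and -0.09 in SE without passing the test. Between the pilocarpine groups Clock was higher in mutants by 0.25 (limma adjusted p = 0.0102, and 0.0536 without mutant given pilocarpine 1), as were Hif3a by 0.40, Ahr by 0.35 and 5.39% of all probe sets. Hif3a was also 0.31 higher in mutant than in heterozygous controls without overlap (unadjusted p = 0.000903, limma adjusted p = 0.26), where 6.1% of all probe sets lay above. The difference of Hif3a between the responses was 0.09 (limma adjusted p = 0.759). Its level was low, at 5.84 to 6.69 over the 12 arrays, below the array medians. In the mutants given pilocarpine 0 of 13 were called against mutant controls by limma, and between the controls 0 of 13. Over all probe sets 1.84% and 0.12% were called in these 2 comparisons.

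**Figure D5:**
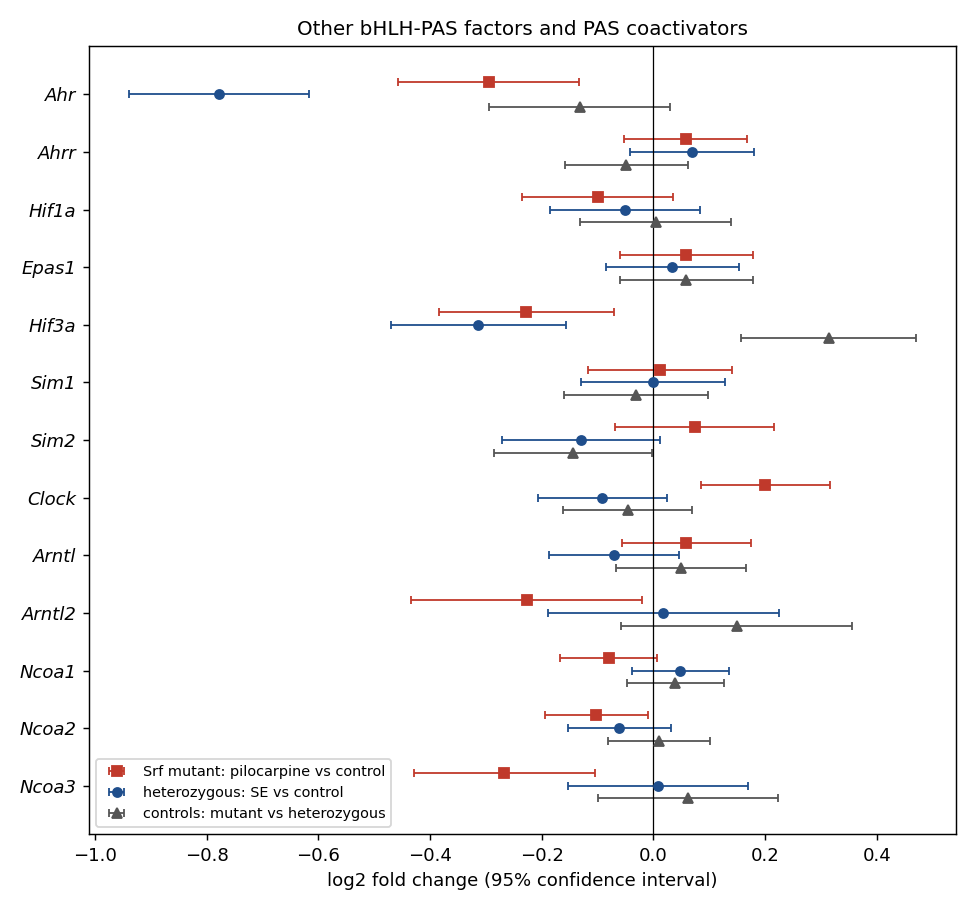
Log2 fold change (horizontal axis) of 13 other genes of bHLH-PAS factors and PAS coactivators (3 animals per group) in mutants given pilocarpine over mutant controls, heterozygous mice with SE over heterozygous controls, and mutant over heterozygous controls. Bars are 95% confidence intervals from limma; Ahr at -0.78 and Hif3a at -0.31 in SE are the 2 called changes.

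Of 5 AHR targets 1 was called in each genotype, where 1.84% of all probe sets were called in the mutants and 12% in SE. This was Tiparp, which encodes an ADP-ribosyltransferase and is also induced by neuronal activity. Tiparp measured 10.01, 10.03 and 9.94 in mutants given pilocarpine, against 9.17, 9.17 and 9.25 in mutant controls. It measured 11.92, 12.002 and 11.93 in heterozygous mice with SE, against 9.13, 9.22 and 9.09 in heterozygous controls. Only the controls overlapped. Tiparp rose by 0.80 in the mutants (limma adjusted p = 3.17e-06) and by 2.80 in SE (limma adjusted p = 6.85e-12), with a difference of -2.01 (limma adjusted p = 1.33e-08). Cyp1a1, the classic AHR target, had -0.01 in SE. Its level was 5.06 to 5.32 over all 12 arrays, below the array medians, where a change may not show.

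Of 15 targets of the hypoxia factors 2 were higher and 1 lower in SE, with a median of -0.03 beside -0.03 over all probe sets. Over all probe sets 5.08% were called higher and 6.93% lower. Adm, which encodes adrenomedullin, rose by 0.74 (limma adjusted p = 0.00101) and Slc2a1, the glucose transporter gene, by 0.43 (limma adjusted p = 0.0104, and up to 0.0533 without heterozygous control 3 or heterozygous mouse with SE 3). Bnip3, a mitophagy gene, was called lower by -0.17 (limma adjusted p = 0.0421), a call lost in 12 of 22 alternatives, with adjusted p up to 0.153, among them the fits without any 1 of the 6 heterozygous arrays, mutant control 2 or mutant given pilocarpine 2. In the mutants 0 of 15 were called by limma, where 1.84% of all probe sets were called. The responses differed for 0 of 15, where 3.59% of all probe sets were called. Vegfa, the vascular growth factor gene, was lower in mutants given pilocarpine than in heterozygous mice with SE by -0.20 (limma adjusted p = 0.0267), a call lost when mutant given pilocarpine 1 or 2, or heterozygous mouse with SE 1 or 3, was left out. Between the controls Vegfa had -0.19 without overlap (unadjusted p = 0.00365, limma adjusted p = 0.382), where 7.46% of all probe sets lay below. The difference of Vegfa between the responses was -0.02 (limma adjusted p = 0.951).

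Of 11 targets of CLOCK or NPAS2 with BMAL1, 2 were higher and 1 lower in the mutants given pilocarpine, where 0.871% of all probe sets were called higher and 0.965% lower. In SE 4 were higher and 2 lower, where 5.08% of all probe sets were called higher and 6.93% lower. Per1, a clock repressor gene that is also activity-regulated, rose by 0.67 in the mutants (limma adjusted p = 0.000106) and by 1.78 in SE (limma adjusted p = 8.95e-10), with a difference of -1.11 (limma adjusted p = 7.95e-06). Cry2, another clock repressor gene, rose by 0.54 in SE, and its difference between the responses was -0.48 (limma adjusted p = 0.000921). Bhlhe40, a repressor gene, rose by 0.47 in the mutants and by 0.41 in SE, and Dbp, a clock output gene, fell by 0.53 in the mutants and by 0.44 in SE. Per2 at 0.28 and Bhlhe41 at -0.30 in SE passed the test with adjusted p values of 0.0374 and 0.0314 from limma, and lost it in 9 and 6 of 22 alternatives. The call of Per2 was lost without any 1 heterozygous control, heterozygous mouse with SE 1 or 2, or mutant given pilocarpine 1 or 2 (adjusted p up to 0.13 from limma). That of Bhlhe41 was lost without heterozygous control 1 or 2 or heterozygous mouse with SE 2 or 3 (adjusted p up to 0.116 from limma). Harvest hour is not given in the sources used here, and its part in these values was not tested.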

How the data were processed

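RNA of 12 hippocampi was measured in 4 groups of 3 animals, which GEO's titles number as separate animals. Scans were summarised by the authors in Affymetrix Expression Console, and the deposited values are RMA levels on a log2 scale, already background-corrected, quantile-normalized and summarised per probe set, so that scanner signal could not be examined. The platform annotation names 1 gene for 21789 of 35556 probe sets, several for 1621 and none for 12146. The 23410 with a gene were tested with limma 3.58.1 in R 4.3.3 (lmFit and eBayes, 1 mean per group over all 12 arrays), with Benjamini-Hochberg adjustment, in 5 comparisons. Alternative settings changed the prior variance, the normalization, the handling of dim probe sets, the arrays and probe sets in the fit, array weights, Xist, a replicate block and leaving out each array. The fit was tested on simulated data. The number of arrays limits the precision. Python 3.11.15 searched the promoters and matplotlib 3.10.9 drew the plots. Members and gene lists were chosen with earlier results of these data known. Genes named are the members, Srf, called genes of each list, otherwise those of largest change in SE (up to 6), and the 5 genes nearest to Npas4; some of these were left out, and Inhba, Dusp6, Cyp1a1, Hif1a and Epas1 were added after their values were seen.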

Additional observations from a re-analysis of the deposited data

Results flagged for a closer look

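Responses to pilocarpine differed between the genotypes by limma's interaction test for Npas4, for 10 genes of the other lists and for Srf. These were 1 of 5 members, 6 of 8 NPAS4 targets, 1 of 13 other family genes, 1 of 5 AHR targets, 2 of 11 targets of CLOCK or NPAS2, and 0 of 15 hypoxia targets. Over all probe sets 2.12% were called lower, 1.47% higher and 3.59% in either direction. The lists were chosen with earlier results of these data known, so that these counts are a description. The log2 response of mutants minus that of heterozygous mice was -2.12 for Npas4 (adjusted p = 1.43e-05). It was -1.45 for Bdnf, -1.11 for Nptx2, -1.004 for Plk2, -1.14 for Arc, -2.62 for Fos and -1.55 for Egr1, with adjusted p of at most 0.0049. For Tiparp it was -2.01 (adjusted p = 1.33e-08), for Per1 -1.11 (adjusted p = 7.95e-06), for Cry2 -0.48 (adjusted p = 0.000921) and for Srf, the deleted gene, -0.66 (adjusted p = 0.000236). For Ahr, which fell in SE, it was 0.48 (adjusted p = 0.0247), a call lost in 7 of 21 alternatives. The mutants given pilocarpine had no SE, so that genotype and SE cannot be told apart in these differences. Groups of 3 animals were not searched for outlying values.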

How the results depend on the processing

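All 550 values of the 5 members under the alternatives stayed on the same side of the threshold as reported, and 14 uncalled values changed sign. The log2 fold change of Npas4 ranged over the alternatives from 3.55 to 3.73 in the mutants given pilocarpine, from 5.68 to 5.90 in SE, from -2.26 to -2.03 for the difference between the responses and from -1.80 to -1.65 between the pilocarpine groups. Between the controls it ranged from 0.31 to 0.54 (adjusted p = 0.174 to 0.881 from limma).

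Counts of called probe sets moved more. For mutants given pilocarpine against mutant controls, 430 were called, 161 when other groups were left out of the fit and 246 over all probe sets. For mutant against heterozygous controls, 28 were called, 9 when other groups were left out, 11 over all probe sets, 12 with Xist as a covariate and 15 with the replicate block. Leaving out 1 array gave 162 to 448 for the mutants given pilocarpine, 1989 to 2938 for SE (2813 in full), 535 to 986 for the difference between the responses (840 in full), 8 to 47 for the controls and 1547 to 2486 between the pilocarpine groups (2367 in full). Fewer arrays or more probe sets entered several of these fits, and the cause was not tested otherwise. The share of calls that were higher was 47.4% for the mutants given pilocarpine. It was 75.2% when other groups were left out, 57.8% with the replicate block, 57.1% after a second quantile normalization, and 64.1, 64.2 and 66.7% without mutant control 2, mutant given pilocarpine 1 and mutant given pilocarpine 2. For the controls it was 32.1%, against 11.1% when other groups were left out or without mutant control 2, 18.2% over all probe sets, 21.7% after a second quantile normalization, 20.0% without heterozygous control 3 and 51.1% without mutant control 3. After median centring it was 51.9% for SE (42.3% as reported) and 31.0% for the difference between the responses (41.0%). Array weights gave 1238 for the difference between the responses.

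Of 18 same-numbered pairs of arrays, 5 correlated above 0.1 in their deviations from the group means, and all lay between -0.31 and 0.32. Pairs of different numbers were not correlated, so that pairing by animal number or a shared batch was not tested. All 3 pairs between mutant controls and heterozygous mice with SE, which were not compared with each other, were among the 5 (0.12 to 0.32). The replicate block changed the call of no member. Under it 303 probe sets were called for the mutants given pilocarpine, 2489 for SE, 659 for the difference between the responses and 2121 between the pilocarpine groups.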
